A study of Rattus norvegicus with 6 samples.

Results

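The lncRNAs listed under an Ensembl transcript identifier were taken as a group, by the start of their identifier (ENSRNOT). They numbered 925 of the 22721 lncRNA transcripts counted, 4.07% of the list, and belonged to 848 Ensembl genes. The remaining transcripts were 20259 from the NONCODE database and 1537 that the authors had newly predicted from their own reads. Sciatic nerves of 1-month-old Sprague-Dawley rats were sequenced in 3 groups of 2 rats each, with 1 library per rat: a control group, rats sampled 4 days (D4) and rats sampled 7 days (D7) after the left nerve had been crushed with forceps. The labels call the control rats normal, whereas the methods describe the same operation without the clamp. No allele or drug was part of the design. Whole pieces of nerve were extracted, so a lower level of a transcript may reflect fewer cells of a type or less RNA per cell, which cannot be told apart here.

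An lncRNA is a transcript that is not translated into a known protein. Some lncRNAs act in cis on the gene beside which they are made, some host small nucleolar RNAs (snoRNAs) in their introns, and some are stable parts of ribonucleoprotein complexes. After a crush, the axons beyond the injury degenerate, Schwann cells lower their myelin genes and turn to a repair state, and macrophages enter to clear myelin debris. Ensembl transcripts are gene models placed on the genome, and most of those listed here carry only a clone-based name without a described function.

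The libraries held 2694777 to 3043817 lncRNA counts and 18727255 to 25350886 gene counts. Defining markers of the nerve were present: all 6 Schwann cell markers examined were above 1 FPKM, a count scaled for gene length and library size, in every library. Their summed level was 23523 to 33168 FPKM in the control libraries, 2527 to 2831 at D4 and 5344 to 8123 at D7. The summed level of the 6 macrophage markers was 62.4 to 68.7 FPKM in the control group, 277 to 302 at D4 and 202 to 241 at D7. In control b the smooth muscle markers summed to 1578 FPKM, against 173 to 382 in the other libraries. The adipocyte markers summed to 272 and 224 FPKM in the control libraries, 77.4 and 37.9 at D4, and 1.34 (D7 a) and 109 at D7. The red blood cell markers in D7 a summed to 89.0 FPKM, against 624 to 1025 in the other libraries. The T cell markers summed to 14.7 and 15.7 FPKM at D7, against 1.75 to 4.31 in the control and D4 libraries. The part of these differences in the results below was not tested.

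Promoter sequences were available from RefSeq for 19 of the gene names. The promoter of LOC102549726 is shown because its 3 transcripts were all called higher at D4, although which of them start there was not examined. Those of Ccdc107 and Shank3 are shown because a called transcript lies just upstream of each of these genes. Each runs 5′ to 3′ from 250 bases before the start to 50 after it, on the plus strand of GRCr8, at chr20:3880958-3881257, chr5:62545100-62545399 and chr7:122448073-122448372. Capitals mark matches to the TATA box TATAAA, the octamer ATGCAAAT and the CCAAT box, searched on both strands.

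LOC102549726: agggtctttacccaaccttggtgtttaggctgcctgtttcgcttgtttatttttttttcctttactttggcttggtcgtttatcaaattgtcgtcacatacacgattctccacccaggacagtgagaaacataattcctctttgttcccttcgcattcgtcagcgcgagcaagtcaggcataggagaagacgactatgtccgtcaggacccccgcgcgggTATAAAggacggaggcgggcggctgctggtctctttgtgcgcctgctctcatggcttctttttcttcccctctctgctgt

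Ccdc107: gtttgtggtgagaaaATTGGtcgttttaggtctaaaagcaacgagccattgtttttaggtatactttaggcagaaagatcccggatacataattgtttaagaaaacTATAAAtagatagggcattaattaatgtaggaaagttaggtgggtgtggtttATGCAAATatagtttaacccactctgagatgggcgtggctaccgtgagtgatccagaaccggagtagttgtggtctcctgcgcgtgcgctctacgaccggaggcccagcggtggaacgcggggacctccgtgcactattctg

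Shank3: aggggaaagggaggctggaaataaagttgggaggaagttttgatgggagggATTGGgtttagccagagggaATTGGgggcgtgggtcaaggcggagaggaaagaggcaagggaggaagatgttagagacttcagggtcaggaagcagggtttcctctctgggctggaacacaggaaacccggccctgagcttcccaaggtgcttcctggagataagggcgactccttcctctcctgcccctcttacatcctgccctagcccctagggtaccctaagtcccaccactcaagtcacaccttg

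The match to TATAAA before LOC102549726 lay 30 to 25 bases upstream of the start. In the Ccdc107 window TATAAA lay 144 to 139 bases and the octamer 92 to 85 bases upstream. Of the 33469 promoters in the same table, 14.2% held TATAAA on either strand, 1.78% the octamer and 37.5% CCAAT. These are matches of letters and not sites of binding.

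The Ensembl lncRNA transcripts were mostly of low abundance. Their median length was 810 nt (124 to 6316), compared with 686 nt over all lncRNA transcripts. The median total over the 6 libraries was 14 counts, 34 transcripts had no count in any library, and 369 had a count in every library. The mean FPKM was at least 1 for 164 transcripts, at least 10 for 15 and at least 100 for 3. The median of log2(FPKM + 1) was 0.19 and 0.16 in the control libraries, 0.15 and 0.17 at D4, and 0.20 and 0.19 at D7. The D4 and D7 medians each overlapped or lay beside those of the control libraries, and no test was made on them. NONCODE transcripts had medians of 0.83 to 0.99 on this scale in the same libraries, and newly predicted transcripts 1.5 to 1.79. Only 323 of the 925 transcripts (34.9%) had enough counts to be tested between groups, compared with 60.9% of the NONCODE and 92.1% of the newly predicted transcripts, so the changes described below concern the more abundant part of the list.

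A few well-known structural RNAs stood far above the rest, and together held 52.0% of all counts of the Ensembl lncRNA transcripts. RNase_MRP (ENSRNOT00000090903, chr5:58994682-58994953, Rnor_6.0), the RNA of the ribonuclease that cuts ribosomal RNA precursors, had 1294 and 809 FPKM in the control libraries, 2402 and 2767 at D4, and 2433 and 2464 at D7. All 4 injured libraries were thus above both control libraries. It rose 2.49-fold at D4 (log2 1.32, SE 0.26, adjusted p = 0.0354), and at D7 the log2 difference was 1.02 (SE 0.26, adjusted p = 0.0813). LOC102723236 (ENSRNOT00000088597), which the gene table describes as 7SL, the RNA of the signal recognition particle, had 1057 and 937 FPKM in the control libraries, 1907 and 1959 at D4, and 1491 and 1822 at D7. Its log2 difference at D4, 0.99 (SE 0.14, adjusted p = 0.0138), stayed just under the required fold of 2. 7SK (ENSRNOT00000079055), which holds the elongation factor P-TEFb in an inactive complex, had 647 and 394 FPKM in the control libraries, 697 and 958 at D4, and 1211 and 1120 at D7, with log2 differences of 0.69 (adjusted p = 0.205) and 0.96 (adjusted p = 0.124).

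The values of 7SL and 7SK are uncertain, because other loci are listed under the same names and the counting may have divided reads among them. The gene table lists 1 other LOC102723236 locus, with 514160 counts against 64703 for the transcript above, and 423 other 7SK loci, of which 128 had a count. RNase_MRP is listed at 1 locus. As a share of all lncRNA counts, the Ensembl transcripts took 1.60% and 1.33% in the control libraries, 2.42% and 2.56% at D4, and 2.21% and 2.20% at D7. Without the 3 structural RNAs these shares were 0.889% and 0.852%, 1.10% and 1.06%, and 1.04% and 0.989%.

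**Figure D1:**
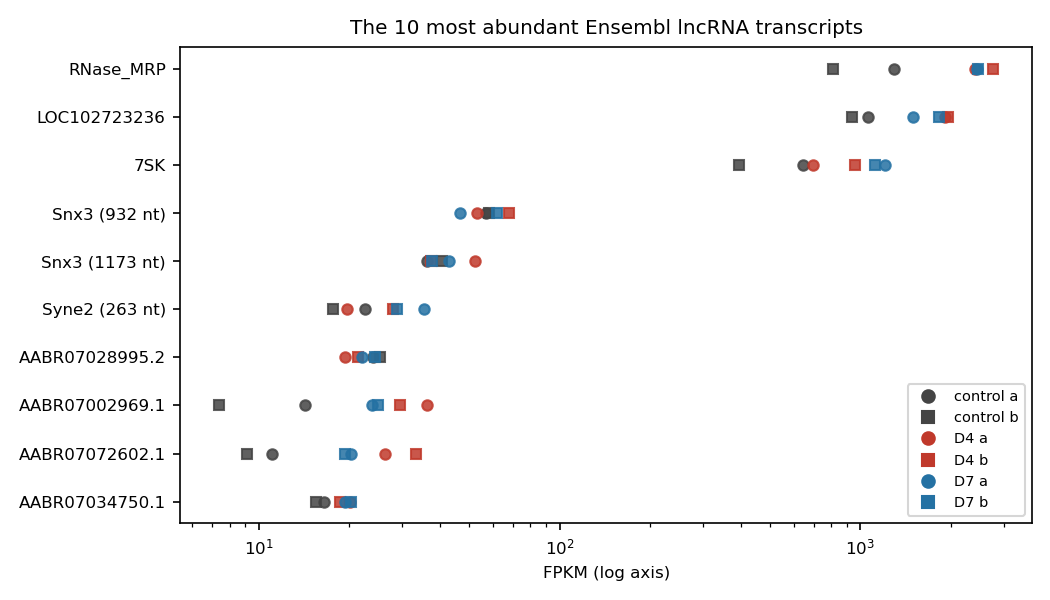
FPKM (log axis) of the 10 Ensembl lncRNA transcripts with the highest mean FPKM, with 1 point per library, coloured by group and shaped by library letter. RNase_MRP, LOC102723236 and 7SK lie between 394 and 2767 FPKM, and no other transcript exceeds 68 FPKM.

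Of the other 7 abundant transcripts, 1 passed at D4. The pair from Snx3, a sorting nexin of the endosome, had 46.8 to 68 FPKM and 36.2 to 52.5 FPKM across the 6 libraries, with the 3 groups overlapping. A short transcript of Syne2, which encodes the nuclear envelope protein nesprin-2, had 17.7 to 35.5 FPKM, and AABR07028995.2 had 19.3 to 25.3 FPKM. AABR07034750.1, 6541 bp from Aifm3, had 15.5 and 16.5 FPKM in the control libraries and 18.6 to 20.3 in the injured libraries (log2 0.31, SE 0.13, adjusted p = 0.179 at D4). AABR07072602.1 rose at D4, from 11.1 and 9.15 FPKM to 26.3 and 33.3 (log2 1.59, SE 0.23, adjusted p = 0.0155), and stood at 20.2 and 19.3 FPKM at D7. AABR07002969.1 went from 14.3 and 7.38 FPKM to 36.2 and 29.6 at D4, but did not pass (log2 1.61, SE 0.38, adjusted p = 0.0525).

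The first comparison asked which Ensembl lncRNA transcripts differed 4 days after the crush. A transcript was called where the adjusted p of edgeR's quasi-likelihood test was under 0.05 and the change at least 2-fold. At D4, 42 of the 323 tested transcripts (13.0%) were called, 25 higher and 17 lower, from 38 genes. Over all 14077 lncRNA transcripts tested in the same fit, 10.1% were called, 5.19% higher and 4.87% lower. At D7, 22 of 323 (6.81%) were called, 14 higher and 8 lower, against 5.79% of all tested transcripts (3% higher and 2.79% lower). The median log2 difference of the 323 was 0.04 at D4 and 0.01 at D7, compared with 0.02 and 0.04 over all tested transcripts. The shares called were therefore near those of lncRNAs at large, with individual transcripts moving in both directions.

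The split into higher and lower depends on the scaling. Every Ensembl lncRNA gene is listed a second time in the gene table, and 680 of the 925 transcripts have the same 6 counts there. In the fit of the gene table the log2 differences of 189 such transcripts were lower by a median of 0.35 at D4 and 0.11 at D7 than in the lncRNA fit. Read through their own gene, 76 of the 323 tested transcripts were called at D4, 23 higher and 53 lower, and 72 at D7, 29 higher and 43 lower. Of all 15195 genes tested in the gene table, 21.9% were called at D4 (11.2% higher and 10.7% lower) and 18.8% at D7 (9.83% higher and 9.02% lower). All 17 transcripts called lower at D4 and all 8 at D7 were called lower there too, as were all 14 called higher at D7, but only 17 of the 25 called higher at D4. When both tables were fitted jointly, 31 of 66 calls at D4 and 22 of 50 at D7 were higher, from 325 Ensembl transcripts tested. Of all 29381 transcripts and genes in that fit, 17.6% were called at D4 (9.15% higher and 8.44% lower) and 13.9% at D7 (7.63% higher and 6.28% lower). The other 8 rises at D4, among them RNase_MRP with a log2 of 0.98 in the gene table, had fitted values under log2 1 there.

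**Figure D2:**
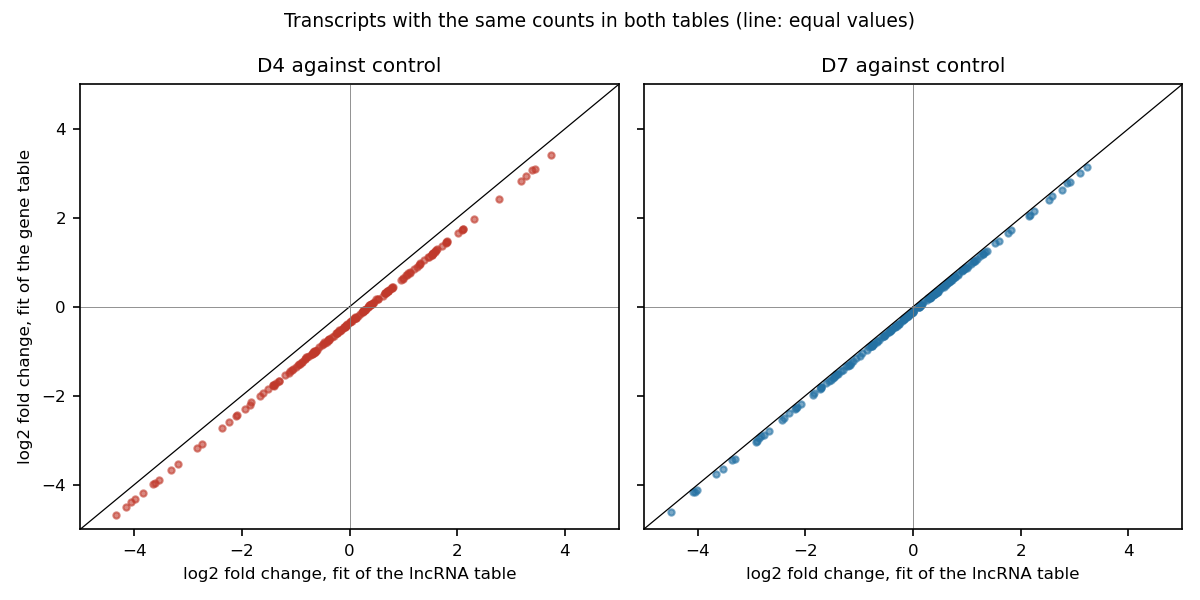
The log2 fold changes against control of tested transcripts whose counts are the same in both tables, in the fit of the lncRNA table (horizontal) and of the gene table (vertical), for D4 and D7, without transcripts that have 3 counts or fewer in a group. The points run parallel to the line of equal values, below it by a median of 0.35 at D4 and 0.11 at D7.

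Some of the largest rises were of transcripts without a count in control nerves. AABR07030791.1 (ENSRNOT00000090488, chr10:104817972-104820399) had 0 counts in both control libraries, 61 and 35 at D4, and 99 and 72 at D7. Measured against a floor of 3 counts per control library, it was at least 14.5-fold higher at D4 (adjusted p = 0.0121) and at least 26.6-fold higher at D7 (adjusted p = 0.0132). AABR07007055.1 (ENSRNOT00000077804, chr1:278476630-278480271) likewise had 0 counts in both control libraries, 73 and 27 at D4, and 33 and 30 at D7, at least 15.3-fold (adjusted p = 0.0240) and at least 9.80-fold (adjusted p = 0.0427) higher. No other listed gene lies within 10 kb of either. The call of AABR07007055.1 at D4 was lost without D4 a, without either control library, without either D7 library and without a filter on low counts (adjusted p = 0.0546). From D4 b alone it was at least 7.63-fold higher than control.

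A group of rising transcripts lay in the rat major histocompatibility region of chromosome 20. The leading ones came from LOC102549726, whose span covers the snoRNA genes SNORD52 and SNORD48. Its 767-nt transcript (ENSRNOT00000087471, chr20:4871264-4873982) had 37 and 24 counts in the control libraries, 256 and 323 at D4, and 197 and 159 at D7. It rose 8.48-fold at D4 (log2 3.08, SE 0.27, adjusted p = 0.00429) and 5.47-fold at D7 (log2 2.45, SE 0.26, adjusted p = 0.0110). Its 747-nt transcript (ENSRNOT00000077098) went from 11 and 7 counts to 74 and 107 at D4 and 63 and 56 at D7 (log2 3.15, SE 0.33, and 2.62, SE 0.33). The 741-nt transcript (ENSRNOT00000081704) went from 4 and 3 counts to 14 and 27 at D4 (log2 2.34, SE 0.51, adjusted p = 0.0438) and 15 and 13 at D7 (adjusted p = 0.0965). In all 3 the injured libraries lay above both control libraries. The 3 transcripts come from 1 locus and are not independent, and their common gene had a log2 difference of 2.71 (SE 0.21, adjusted p = 0.000347) at D4 and 2.35 at D7 in the gene table.

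The class I genes RT1-CE2, RT1-CE4 and RT1-CE7, whose listed spans wholly enclose LOC102549726, did not pass at D4, with log2 differences of 0.00, 0.21 and 0.41. Hspa1b, which encodes the inducible heat shock protein Hsp70, lies 3342 bp from the longest transcript and fell, from 627 and 905 counts to 516 and 406 at D4 (log2 -1.26, adjusted p = 0.0138) and 325 and 290 at D7 (log2 -1.55, adjusted p = 0.00861). SNORD52 and SNORD48 themselves had at most 4 counts in a library.

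Further along the same region, Rn60_20_0056.5 (ENSRNOT00000090050, chr20:3403204-3403731) had 0 and 1 counts in the control libraries, 68 and 165 at D4, and 99 and 60 at D7. The ratio was 208 at D4 (95% counting interval 37.0 to 8260, adjusted p = 0.00901) and 149 at D7 (26.3 to 5912, adjusted p = 0.0158). Its own gene moved less, with 51 and 44 counts in the control libraries, 227 and 283 at D4, and 167 and 146 at D7 (log2 1.90, SE 0.19, and 1.51, SE 0.19). A NONCODE transcript over the same bases had 89 and 89 counts in the control libraries and 354 and 309 at D4 (log2 1.74, adjusted p = 0.0113). How the counting divided reads among these overlapping transcripts was not tested. The ratio at D4 was 99.9 without control a, at least 35.4 without control b and 128 without D4 b. At D7 it was 71.3 without control a and at least 25.7 without control b. The genes beside it rose as well: Mdc1, a mediator of the DNA damage response 980 bp away, by log2 1.56 at D4 and 1.06 at D7, Nrm, which encodes the nuclear envelope protein nurim, by 1.86 and 1.32, and Ppp1r18, a regulatory subunit of protein phosphatase 1, by 1.68 and 1.62.

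Rn60_20_0058.5 (ENSRNOT00000084263, chr20:3704208-3706631) had 53 and 76 counts in the control libraries, 257 and 378 at D4, and 232 and 189 at D7, a rise of 4.33-fold at D4 (log2 2.11, SE 0.30, adjusted p = 0.0150) and 3.02-fold at D7 (log2 1.59, SE 0.30, adjusted p = 0.0414). Both injured groups lay above the control group. LOC682408, which it partly overlaps, had 9 to 32 counts and did not pass. Between the first and last gene of chromosome 20 whose name starts with RT1- lay 20 Ensembl lncRNA transcripts, of which 14 were tested. At D4, 5 of the 14 were called higher and none lower, compared with 5.19% of all tested lncRNA transcripts called higher, and at D7 4 were called higher and none lower, compared with 3%. This region was chosen after its values were seen, and 3 of the 5 are transcripts of LOC102549726. The 14 did not all point upwards. The tested transcripts of Rn60_20_0066.11, which lies inside the span of the complement gene C4a, had lower group totals at D4 without passing: ENSRNOT00000091341 had 20 and 17 counts in the control libraries, 0 and 0 at D4, and 17 and 0 at D7 (adjusted p = 0.137 at D4), and ENSRNOT00000090814 had 10 and 46, 2 and 11, and 20 and 3 (log2 -2.30, SE 1.21, adjusted p = 0.272). AABR07044418.1 had log2 differences of -0.51 at D4 and -1.19 at D7, without passing.

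Rn60_1_0436.1 (ENSRNOT00000087728, chr1:43563457-43563998) went from 7 and 3 control counts to 62 and 40 at D4 (log2 3.19, SE 0.54, adjusted p = 0.0226, and 3.81 without control a), and stood at 20 and 28 at D7 (adjusted p = 0.0808). It lies inside the span of Oprm1, the mu opioid receptor gene, which had at most 2 counts in a library. Ipcef1, a partner of the cytohesin exchange factors 3844 bp away, rose from 24 and 15 counts to 266 and 242 at D4 (log2 3.20, adjusted p = 0.000409) and 135 and 108 at D7 (log2 2.43, adjusted p = 0.00142). Transcript and gene had the same order of groups, control below D7 below D4.

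Of the 3 transcripts of Rn60_6_1241.2 on chromosome 6, 2 passed at D4. The 1068-nt transcript (ENSRNOT00000076831) had 33 and 12 counts in the control libraries, 112 and 184 at D4, and 63 and 95 at D7 (log2 2.56, SE 0.52, adjusted p = 0.0365 at D4, and 3.35 without control a). The 1331-nt transcript (ENSRNOT00000076887) had 67 and 70, 242 and 280, and 120 and 160 counts (log2 1.76, SE 0.23, adjusted p = 0.0121). The gene as a whole rose at both times in the gene table, by log2 1.86 (SE 0.13) at D4 and 1.23 (SE 0.13) at D7. AABR07050487.1 on chromosome 5 rose at both times in both of its transcripts. The 1506-nt transcript (ENSRNOT00000091421) went from 19 and 10 counts to 99 and 68 at D4 (log2 2.38, SE 0.44) and 93 and 62 at D7 (log2 2.32, SE 0.44), and the 3852-nt transcript (ENSRNOT00000087028) from 267 and 225 to 714 and 581 (log2 1.25, SE 0.21) and 828 and 707 (log2 1.55, SE 0.21). For the longer transcript the D7 and D4 libraries overlapped (log2 0.30 for D7 against D4, adjusted p = 0.628).

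Smaller rises were seen at both times for AABR07027581.1 (67 and 59 counts in the control libraries, 165 and 174 at D4, 245 and 155 at D7, log2 1.27 and 1.57), AABR07052388.1 (log2 1.56 and 1.25) and AABR07003030.2 (log2 1.32 and 1.18). AABR07054855.1, 1048 bp from Gnas, the gene of the stimulatory G protein alpha subunit, went from 6 and 7 counts to 29 and 31 at D4 and 41 and 23 at D7 (log2 2.02, SE 0.44, and 2.18, SE 0.44), while Gnas did not pass at D4 and fell at D7 (from 619 and 441 control counts to 162 and 342, log2 -1.26, adjusted p = 0.0363).

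The rises at D4 also included AABR07043829.2, with 312 and 266 control counts and 680 and 731 at D4 (log2 1.13, SE 0.16, adjusted p = 0.0155), and AABR07053749.1, with 252 and 198, and 481 and 570 (log2 1.06, SE 0.18, adjusted p = 0.0231). Both of these calls were lost in the joint fit of lncRNAs and genes. Among transcripts of few counts, AABR07065387.1 rose from 4 and 7 control counts to 26 and 28 at D4 (log2 2.10, SE 0.44, adjusted p = 0.0405). AABR07063682.1 had 0 and 1 control counts and 11 and 25 at D4, a ratio of 32.2 (95% counting interval 5.42 to 1306, adjusted p = 0.0370, 15.4 without control a, at least 5.48 without control b and 20.8 without D4 b), and Rn60_7_1408.2 had 1 and 1, and 11 and 15, a ratio of 11.6 (2.91 to 101, adjusted p = 0.0327).

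Rn60_10_0635.1 (ENSRNOT00000075897, chr10:64590147-64593887) lies inside Abr, which encodes a regulator of small GTPases. It had 178 and 169 counts in the control libraries, 509 and 572 at D4, and 323 and 342 at D7 (log2 1.48, SE 0.16, adjusted p = 0.00752 at D4, and 0.84, SE 0.16, at D7). Abr rose alongside, from 1654 and 1902 counts to 6027 and 6759 at D4 (log2 1.31, adjusted p = 0.00113), with 3520 and 3275 at D7 (log2 0.71). Whether the strand was used in counting is not given in the sources used here, so reads of a gene and of a transcript inside it cannot be told apart.

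Of the gene lists examined for the nerve (myelin and Schwann cell, repair Schwann cell, macrophage and chemokine, cell cycle, and iron, matrix and growth genes), a single listed gene lay within 10 kb of a called transcript: Vsig4, a complement receptor of resident macrophages. Its neighbour Rn60_X_0663.2 (ENSRNOT00000076358, chrX:65367912-65368639, 2212 bp away) had 97 and 74 counts in the control libraries, 206 and 251 at D4, and 92 and 104 at D7, a rise at D4 (log2 1.26, SE 0.21, adjusted p = 0.0226) and a log2 difference of 0.11 at D7. In the gene table its D4 value was 0.90, under the required fold. Vsig4 had 0 counts in both control libraries, 16 and 16 at D4, and 6 and 6 at D7, at least 4.54-fold and at least 2.11-fold higher. No gene of the myelin and Schwann cell list lay within 10 kb of any Ensembl lncRNA transcript.

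**Figure D3:**
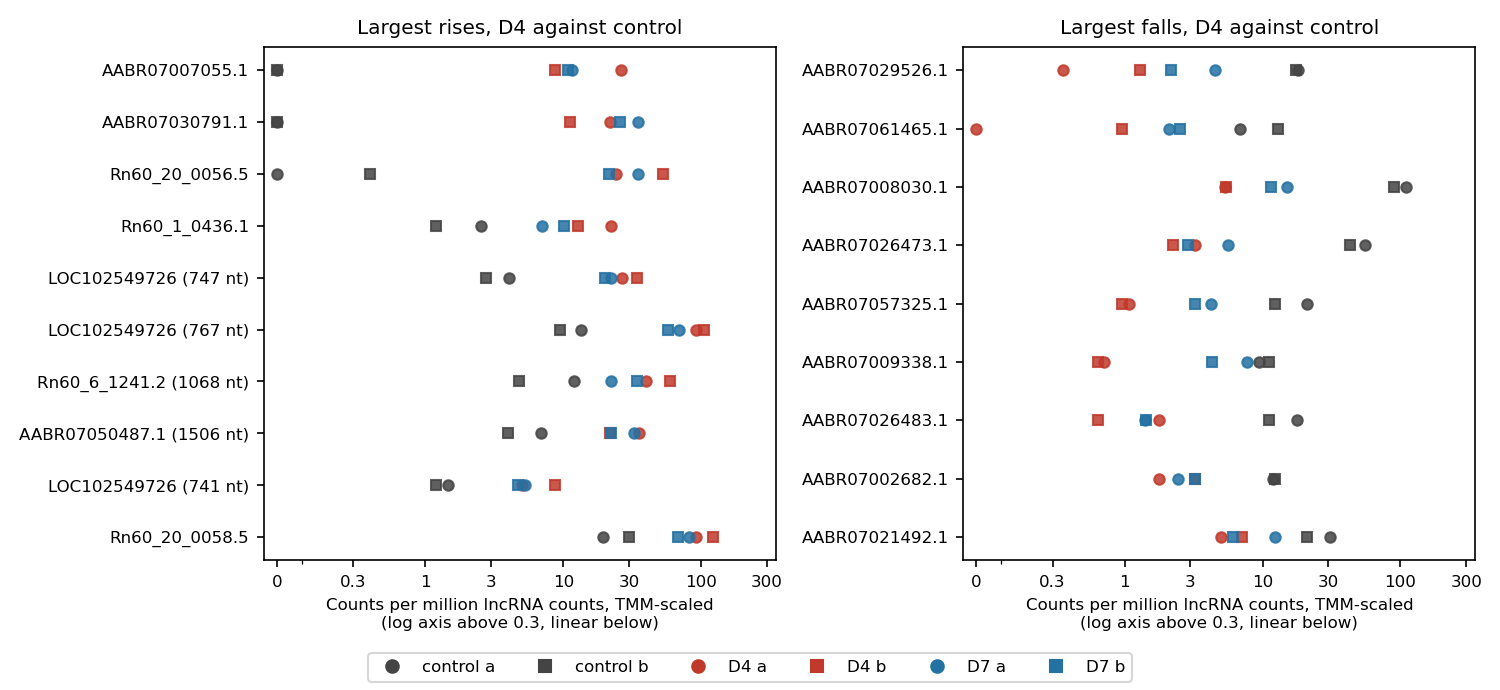
Counts scaled to library size (CPM, with TMM factors), with 1 point per library, for the 10 largest rises (left) and 9 of the 10 largest falls (right) among Ensembl lncRNA transcripts called at D4 with a mean of at least 1 FPKM in the control or the D4 group. The selection required both D4 points to lie on the same side of both control points. AABR07030791.1 and AABR07007055.1 are at 0 in both control libraries.

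Among the falls, AABR07008030.1 (ENSRNOT00000077151, chr2:39619209-39630099) had the smallest adjusted p of the Ensembl transcripts at D4. It had 300 and 228 counts in the control libraries, 15 and 17 at D4, and 43 and 32 at D7, and fell at D4 by 4.19 on the log2 scale (SE 0.27, adjusted p = 0.00239) and by 2.90 at D7 (SE 0.25, adjusted p = 0.00684). A NONCODE transcript over it moved alike, with 221 and 129 counts in the control libraries, 8 and 0 at D4, and 37 and 20 at D7. AABR07026473.1 (ENSRNOT00000085640, chr16:77995246-78016003) went from 152 and 110 counts to 9 and 7 at D4 (log2 -4.16, SE 0.43, adjusted p = 0.00627) and 16 and 8 at D7 (log2 -3.53, SE 0.41, adjusted p = 0.0131). Also on chromosome 16, AABR07026483.1 (ENSRNOT00000085058) went from 49 and 28 counts to 5 and 2 at D4 and 4 and 4 at D7 (log2 -3.55, SE 0.58, and -3.31, SE 0.57, with -4.41 at D4 without D4 a). For AABR07008030.1 both D7 libraries were above both D4 libraries, whereas for these chromosome 16 transcripts the D4 and D7 counts overlapped or nearly so.

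AABR07057325.1 (ENSRNOT00000086676) was called lower at both times as well. It went from 58 and 31 counts to 3 and 3 at D4 (log2 -3.98, SE 0.50) and 12 and 9 at D7 (log2 -2.15, SE 0.43). Its D7 call was lost without TMM factors, without the low-count filter and with only the control and D7 groups fitted. The remaining large falls passed at D4 alone. AABR07029526.1 (ENSRNOT00000081031) had 50 and 44 counts in the control libraries, 1 and 4 at D4, and 13 and 6 at D7 (log2 -4.33, SE 0.63, adjusted p = 0.0160, and -5.49 without D4 b). AABR07061465.1 (ENSRNOT00000081330) had 19 and 33, 0 and 3, and 6 and 7 counts, a ratio of 19.4 of control to D4 (95% counting interval 6.28 to 97.1, adjusted p = 0.0437), with 10.2 without D4 a and at least 9.31 without D4 b. AABR07009338.1 (ENSRNOT00000091883) went from 26 and 28 counts to 2 and 2 at D4 (log2 -3.83, SE 0.53, adjusted p = 0.0137) and had 22 and 12 at D7 (log2 -0.77, adjusted p = 0.314). AABR07021492.1 fell at D4 by 2.09 on the log2 scale (SE 0.46, adjusted p = 0.0438).

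Some transcripts that were detected in both control libraries had no count at D4. AC096330.1 (ENSRNOT00000081446) had 21 and 17 counts in the control libraries, 0 and 0 at D4, and 9 and 11 at D7, at least 7.05-fold lower at D4 (adjusted p = 0.0137). AABR07010985.1 (ENSRNOT00000078751) had 26 and 12, 0 and 0, and 2 and 4 counts, at least 6.97-fold lower at D4 (adjusted p = 0.0276). Both had means under 1 FPKM. AABR07001591.1 went from 19 and 16 control counts to 3 and 1 at D4 (log2 -3.20, SE 0.64, adjusted p = 0.0363), and AABR07072264.3 from 15 and 12 to 2 and 2 (log2 -2.83, SE 0.63, adjusted p = 0.0457). Scaled to library size, AABR07001591.1 had 1.07 CPM in D4 a and 0.32 in D4 b, against 6.91 and 6.32 in control. The size of its fall therefore depends on the D4 library used.

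Falls beside genes that also fell were seen on chromosomes X and 1. Rn60_X_0635.2 (ENSRNOT00000076867) had 100 and 87 counts in the control libraries, 23 and 35 at D4, and 21 and 10 at D7 (log2 -1.85, SE 0.39, and -2.68, SE 0.41, with -3.30 at D7 without D7 a). Rn60_X_0635.3 (ENSRNOT00000076835), 5849 bp farther, had 30 and 26, 8 and 8, and 29 and 27 counts, a fall at D4 (log2 -1.95, SE 0.33, adjusted p = 0.0236), with a log2 difference of -0.09 at D7 (SE 0.30, adjusted p = 0.878). Pcyt1b, an enzyme of phosphatidylcholine synthesis 1963 bp from Rn60_X_0635.2, fell at both times, from 417 and 254 counts to 66 and 123 and to 57 and 60 (log2 -2.34 and -2.70). AABR07002682.1 (ENSRNOT00000084874) fell at D4, from 33 and 31 control counts to 5 and 10 (log2 -2.25, SE 0.43, adjusted p = 0.0324). The zinc finger gene Zfp180, 4086 bp away, fell by 1.51 at D4 and by 1.59 at D7 on the log2 scale, and Zfp112, 1956 bp away, had -0.98 and -0.64. Pdk3, 8073 bp from Rn60_X_0635.3, had log2 differences of 0.29 and 0.42 and did not pass.

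**Figure D4:**
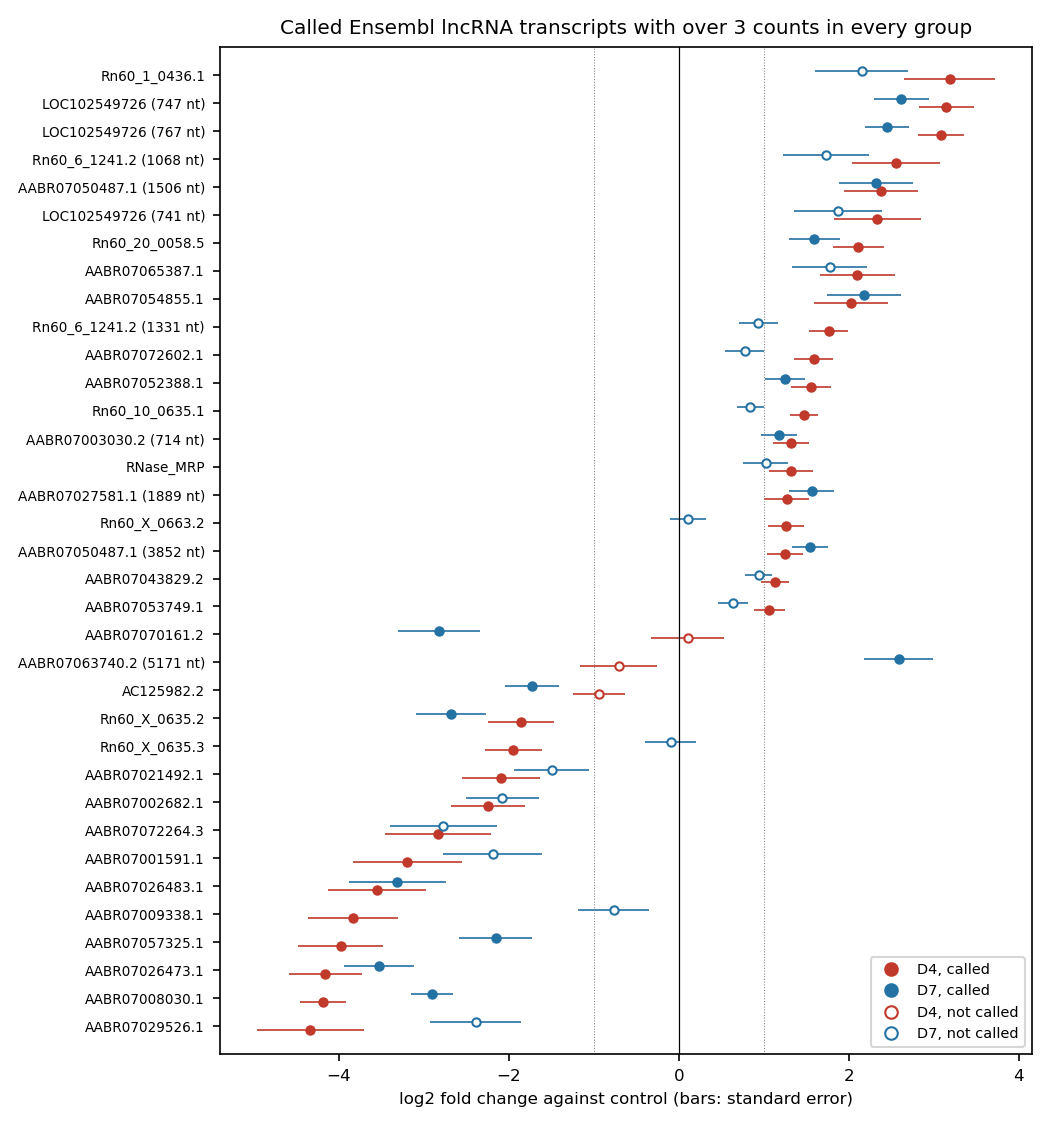
The log2 fold change against control at D4 (red) and D7 (blue), with bars of 1 standard error, for called Ensembl lncRNA transcripts that have over 3 counts in every group, with 1 transcript not shown. Filled points passed the threshold, the dotted lines mark a 2-fold change, and most D7 points lie between the D4 point and 0.

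The second question was how the transcripts stood at D7. Of the 46 transcripts called at D4 or D7, 18 were called at both times, 12 higher at both and 6 lower at both. A further 24 were called at D4 and not at D7 (23 of them with the same sign at D7), and 4 at D7 and not at D4. Both comparisons use the same control libraries, which by itself favours the same sign. The agreement over all tested lncRNA transcripts is not given here. Of the 25 called higher at D4, 21 were nearer to the control level at D7, and of the 17 called lower 16 were. These transcripts were picked by their D4 values, so this count is a description. Compared directly, D7 against D4, 0 of the 323 tested transcripts were called by edgeR's quasi-likelihood test, against 0.249% of all tested lncRNA transcripts. An unadjusted p under 0.05 was found for 47 (14.6%), compared with 12.5% of all tested lncRNA transcripts. DESeq2 called 7 of 891, compared with 1.78% of all lncRNA transcripts it tested. In the gene table, where 2.18% of all tested genes were called for D7 against D4, the own genes of 10 of the tested transcripts were called, 9 higher at D7 and 1 lower. The lower one was AABR07070161.2 (log2 -2.68, SE 0.46, adjusted p = 0.0372). Higher were Rn60_X_0635.3 (log2 2.09, SE 0.38, adjusted p = 0.0414), AABR07009338.1 (3.30), AABR07008030.1 (1.89), AABR07063740.1 (2.59), AABR07063740.2 (3.57), AC141169.2 (1.16), AABR07026969.1 (1.23), and AC096330.1 and AABR07004364.1, both without a count at D4. Of these 10 genes, 4 have the same counts as their transcript, so whether a difference between D4 and D7 passes depends on the table in which it is fitted.

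The 4 transcripts called at D7 and not at D4 were AABR07056517.1, AABR07063740.2, AABR07070161.2 and AC125982.2. AABR07056517.1 (ENSRNOT00000087144, chr7:28371700-28372432) had 0 counts in both control libraries, 3 and 2 at D4, and 16 and 13 at D7, at least 4.51-fold higher at D7 (adjusted p = 0.0328). AABR07063740.2 (ENSRNOT00000084961, chr6:44731199-44737586) had 16 and 9 counts in the control libraries, 7 and 10 at D4, and 99 and 62 at D7 (log2 2.58, SE 0.41, adjusted p = 0.0276), and has a mean FPKM under 1 in every group. AABR07070161.2 (ENSRNOT00000083870, chr8:55535094-55537615) had 153 and 57 counts in the control libraries, 121 and 127 at D4, and 15 and 16 at D7 (log2 -2.82, SE 0.48, adjusted p = 0.0334, and -2.05 without control a). Here the D4 libraries lay between the control libraries, and only the D7 libraries were low. It is 1 of 6 Ensembl lncRNA transcripts between bases 55523891 and 55544874 of chromosome 8, of which 5 were tested. The other 4 tested, AABR07070161.4, AABR07070161.5, AABR07070161.6 and AABR07070161.7, were below both control libraries in both D7 libraries too, with adjusted p of 0.0595 to 0.0948 in the lncRNA fit, and all 4 were called lower at D7 in the gene table. AABR07070161.4 had 39 and 11 counts in the control libraries, 15 and 25 at D4, and 0 and 3 at D7.

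AC125982.2 (ENSRNOT00000080883, chr7:130472551-130474067) ends 441 bp before the listed start of Shank3, a scaffold protein of excitatory synapses whose promoter is printed above. It had 67 and 67 counts in the control libraries, 30 and 49 at D4, and 19 and 24 at D7 (log2 -1.73, SE 0.32, adjusted p = 0.0404 at D7, and -0.94, adjusted p = 0.118 at D4). Shank3 had 1157 and 1360 counts in the control libraries, 1243 and 1108 at D4, and 540 and 771 at D7, and fell at D7 (log2 -1.16, adjusted p = 0.0148). In the gene table, AC125982.2 also passed at D4 (log2 -1.29, SE 0.33, adjusted p = 0.0231), and Shank3 had -0.62 there without passing.

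The surroundings of the Ensembl lncRNA transcripts were examined with their own gene left out. Of the 925, 42 lay wholly inside another listed gene, 44 partly over one, 354 within 10 kb of one and 485 farther away. Of the tested transcripts in these classes, 6 of 19, 1 of 24, 10 of 125 and 25 of 155 were called at D4, and 2 of 19, 1 of 24, 6 of 125 and 13 of 155 at D7, beside 10.1% and 5.79% of all tested lncRNA transcripts. Of the 6 inside a gene, 3 are transcripts of LOC102549726. Against the 21.9% and 18.8% of all tested genes called at D4 and D7, neighbouring genes were counted in pairs with a transcript. Of the 31 pairs of a called transcript and a tested gene within 10 kb at D4, 16 had a called gene, 12 in the same direction as the transcript and 4 in the opposite direction. At D7 there were 20 such pairs, 12 with a called gene, 9 in the same and 3 in the opposite direction. Beside transcripts that were not called, the gene was called in 17 of 168 pairs at D4 and 43 of 179 at D7. The 31 pairs hold 22 different genes, 13 of them called, and the 20 pairs hold 16, 11 of them called. Some of these genes are themselves genes of Ensembl lncRNA transcripts. Rn60_X_0635.2 and Rn60_X_0635.3 were paired with each other at D4. AABR07070161.4, AABR07070161.5, AABR07070161.6 and AABR07070161.7 were paired with AABR07070161.2 at D7. Mdc1, Nrm and Ppp1r18 were all paired with Rn60_20_0056.5, and Hspa1b recurred beside the transcripts of LOC102549726, in the opposite direction. Pairs come from the same libraries and may share reads or a transcript, and they were counted and not tested.

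The surroundings of RNase_MRP showed both directions at once. Ccdc107, a coiled-coil gene whose listed start is 296 bp away and whose promoter is printed above, fell from 335 and 362 counts to 195 and 239 at D4 (log2 -1.21, adjusted p = 0.00240), with 236 and 248 at D7 (log2 -0.74). Arhgef39, listed from the same base, rose from 7 and 12 counts to 283 and 336 at D4 (log2 4.48, adjusted p = 0.000254) and 193 and 159 at D7 (log2 3.98, adjusted p = 0.000609). A NONCODE transcript that overlaps RNase_MRP fell at D4, from 163 and 193 control counts to 97 and 98 (log2 -1.03, adjusted p = 0.0383).

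**Figure D5:**
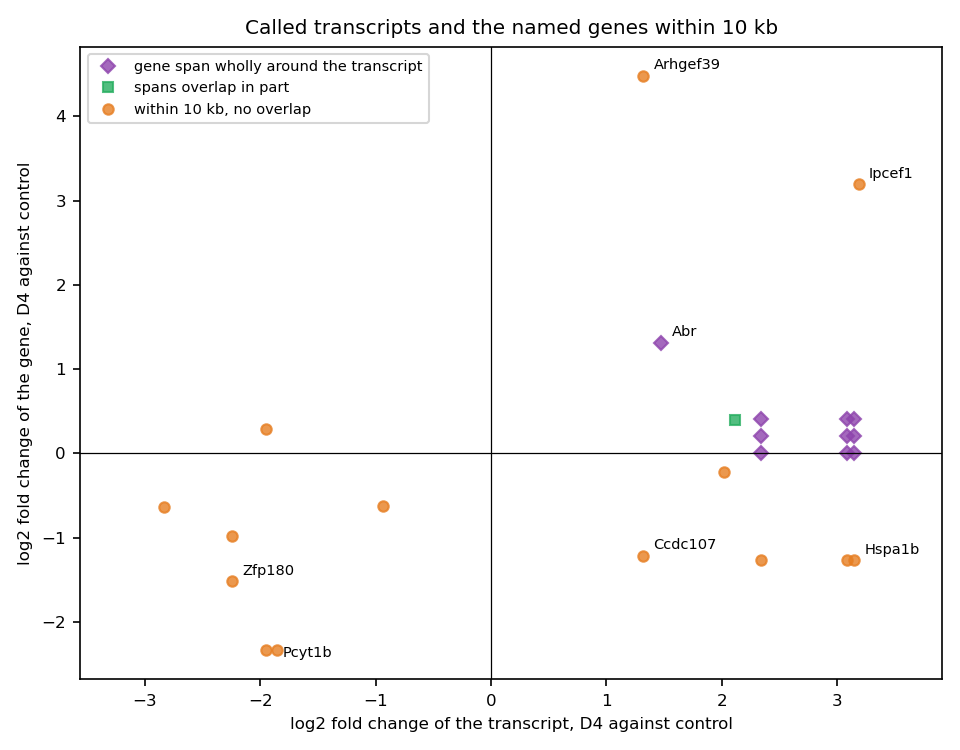
The log2 fold change at D4 of each transcript called at D4 or D7 (horizontal) and of each named gene within 10 kb (vertical), for pairs with over 3 counts in every group of the transcript and in the control group of the gene. Abr, Arhgef39 and Ipcef1 rose with their transcript, Pcyt1b and Zfp180 fell with theirs, and Ccdc107 and Hspa1b fell beside transcripts that rose.

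Where a gene had several tested transcripts, these did not always move together. Among the 28 genes with more than 1 tested Ensembl lncRNA transcript (61 transcripts), all transcripts had the same sign in 18 at D4 and in 21 at D7. More than 1 transcript was called in 3 genes at D4 (LOC102549726, Rn60_6_1241.2 and AABR07050487.1) and in 2 at D7. The called transcripts were more abundant than the rest, with a median of the mean FPKM of 2.01 at D4 and 3.01 at D7 against 0.956 for tested transcripts that were not called. With 2 libraries per group, few calls outlasted the loss of a library: 5 of the 42 at D4 were kept without each library in turn (the 767-nt and 747-nt transcripts of LOC102549726, AABR07008030.1, Rn60_20_0056.5 and AABR07030791.1), and 1 of the 22 at D7 (AABR07008030.1).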

How the data were processed

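Per the methods, 2 rats per group were sequenced after removal of ribosomal RNA, and the authors mapped reads with HISAT2 2.0.4 to Rnor_6.0, assembled transcripts with StringTie 1.3.0 and annotated them against Ensembl and NONCODE. The deposited tables hold whole-number counts and FPKM, both made by the authors, per lncRNA transcript and per gene, with loci but no strand. The Ensembl transcripts and all gene lists were chosen with earlier results of these data known. Counts of each whole table were fitted with edgeR 4.0.16 in R 4.3.3 (filterByExpr, TMM, glmQLFTest, all 6 libraries), with Benjamini-Hochberg adjustment over all transcripts or genes tested. Standard errors were derived from each log2 fold change and its F statistic. FPKM served for levels, with a pseudocount of 1 on the log2 scale. Where a group had no count, folds were taken against 3 counts per library. Where it had 1 to 3 counts, an exact 95% interval is given, which covers counting error only. Named were the 10 largest rises and falls among calls at D4 and at D7. These needed both injured libraries beyond both controls and a mean of at least 1 FPKM in the control or the injured group. Up to 5 each way were to be named for D7 against D4, and the 10 most abundant were named. Of 50 names of known lncRNA genes looked for, 0 matched by name. Rmrp was among these names, and RNase_MRP is listed under another name. Neighbours of the named transcripts within 10 kb, and list genes beside a call, were named too. Others, such as AC096330.1, AABR07010985.1, AABR07063740.2 and the chromosome 8 group, were chosen after their values were seen. One named transcript is not reported here. Promoters are from RefSeq (GRCr8), and no genome of the files' build was used. Alternatives were DESeq2 1.42.0, other scalings, filters, thresholds and sample sets, a replicate block, a joint fit and, chosen after seeing the data, the value of the own gene in the gene table. The script was tested on simulated data. Tables were handled with Python 3.11.15, pandas 2.3.3 and scipy 1.17.1.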

Additional observations from a re-analysis of the deposited data

Results flagged for a closer look

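The transcripts below were singled out because both D4 libraries lay on one side of both control libraries and both D7 libraries on the other. AABR07004364.1 (ENSRNOT00000086092, chr1:139196994-139199494) had 6 and 9 counts in the control libraries, 0 and 0 at D4, and 21 and 15 at D7. It was at least 2.82-fold lower than control at D4 (adjusted p = 0.0364), the log2 difference at D7 was 1.14 (SE 0.52, adjusted p = 0.263), and D7 against D4 had an adjusted p of 0.109 (unadjusted 0.00103) in edgeR's quasi-likelihood test. AABR07063740.2, called at D7, had D4 libraries below and D7 libraries above the control libraries after scaling, and D7 against D4 had an adjusted p of 0.0815 (unadjusted 0.000357) in the same test. Neither difference between D4 and D7 passed in the lncRNA table. In the gene table both did, with adjusted p of 0.0346 for AABR07004364.1 and 0.0155 for AABR07063740.2.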

How the results depend on the processing

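The number of Ensembl lncRNA transcripts called (42 at D4, 22 at D7, 0 for D7 against D4) moved with the fit. The main fit tested 323. At D4 the number called was 66 of 325 tested in the joint fit of lncRNAs and genes. It was 25 of 891 without a filter on low counts, and 8 of 323 at an adjusted p under 0.01. At D7 it was 50 of 325 in the joint fit, 43 of 891 with DESeq2 and 11 of 288 with only the groups compared. It was 8 of 891 without the filter and 1 of 323 (AABR07008030.1) at an adjusted p under 0.01. For D7 against D4 it was 7 of 891 with DESeq2 and 4 of 325 in the joint fit (AABR07063740.1, AABR07063740.2, AC141169.2 and AABR07026969.1). It was 1 (AABR07070161.2) both with only those groups (275 tested) and with at least 10 counts in every library (169 tested). Except where stated above, the shares over all lncRNA transcripts in these fits are not given here. With a library left out, 356 to 359 transcripts were tested. Leaving out a library gave 6 to 28 calls at D4: 16 without control a, 10 without control b, 6 without either D4 library, 26 without D7 a and 28 without D7 b. At D7 it gave 2 to 9, with 2 without either D7 library, and for D7 against D4 it gave 0. Library letters share only a letter: deviations of same-letter libraries had correlations of 0.01 to 0.07, and with the letter as a replicate block 23 transcripts were called at D4 and 9 at D7. Without TMM factors the median log2 difference of the tested transcripts was 0.22 at D4 and 0.17 at D7, and in the joint fit -0.18 and -0.03. Of 606 refits of the 45 named calls, 223 lost the call. Every refit kept the direction, which says little about stability. In all D4 and D7 calls the injured and control libraries did not overlap, so leaving out a library could hardly reverse one. The other refits reuse the same counts. The cause of these differences was not tested. Depth limits the list: 602 of 925 transcripts had too few counts to be tested.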

Other observations

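AABR07063740.1 (ENSRNOT00000077838, chr6:44583699-44616940), 114259 bp from AABR07063740.2, had 35 and 31 counts in the control libraries, 8 and 17 at D4, and 70 and 67 at D7. It was not called in the lncRNA table, its own gene was called higher at D7 than at D4 in the gene table, and the same order of groups, D4 below control below D7, was seen in both transcripts. It was chosen after its values were seen.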
